A study of Mus musculus with 2 samples.

Results

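The 40 genes described here encode the actin cytoskeleton and its main regulators, from actin itself to the proteins that nucleate, cap, cut, bundle and pull on its filaments. They were chosen by symbol from a list of names and not by a measured level, though with earlier results of these data known. All 40 symbols matched a gene among the 21901 genes with a protein-coding transcript. Their levels were measured by total RNA sequencing in 2 libraries of neutrophils from the peripheral blood of C57BL/6J mice, adults aged 5 to 6 weeks. The cells were primary cells with no treatment or genetic change named in the labels, and sex was not collected. Each library was made from 100 ng of total RNA with the ScriptSeq v2 kit and a size range of 200 to 1000. The labels number the libraries as biological replicates 1 and 2 of 1 group but give both the same donor identifier, so the spread between them may be technical. With 1 group there was no second condition to compare and no test between conditions, and all values describe these libraries.

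Actin monomers join into filaments that grow at their barbed end and are taken apart at the other, and a migrating leukocyte crawls by keeping this cycle running at its front. Monomer-binding proteins hold a reserve of actin, the Arp2/3 complex starts new branches when WASP or WAVE proteins switch it on, and capping and severing proteins limit filament length. Bundling proteins and myosin II then give the network stiffness and pull, and talin, kindlin and the ERM proteins tie it to integrins and to the membrane. Neutrophils rely on this machinery to leave the blood, to follow chemical gradients and to engulf microbes, and inherited loss of WASP, coronin or the ARPC1B subunit causes immune deficiency.

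Depth was 22647028 expected counts for replicate 1 and 21471719 for replicate 2. An expected count is the number of reads a program assigned to a gene, with shared reads divided, and TPM is that count divided by the gene's effective length and scaled to the same total in each library. All 12 neutrophil markers checked were detected, with a summed level of 2547 and 2572 TPM in replicates 1 and 2. Most of this sum came from S100a9 (1123 and 1275 TPM) and S100a8 (786 and 712 TPM). Lowest of the list were Ly6g at 1.91 and 2.29 TPM and Cd177 at 3.5 and 4.1 TPM. The 12 markers of B cells summed to 788 and 705 TPM. By the median gene both lists stood at the same height, with 48.7 and 46.1 TPM for the neutrophil list against 49.3 and 42.5 TPM for the B-cell list. Summed levels were 4358 and 4291 TPM for 10 red-cell markers, 47.4 and 44.4 TPM for 10 monocyte markers, 32.7 and 32.7 TPM for 10 T-cell markers and 25.8 and 26.1 TPM for 10 platelet markers. Of the red-cell markers 7 of 10 were detected, from Hba-a2 at 2897 and 2891 TPM down to the factor Klf1 at 0 and 0.01 TPM. Of the T-cell markers 9 of 10 were detected, from Cd3g at 7.74 and 6.62 TPM down to Cd4 at 0.58 TPM in both. Actin genes are active in all nucleated blood cells, so each level below is that of the whole library, and the part of the other cells in it was not tested. In such bulk samples fewer cells of a type and less RNA per cell cannot be told apart.

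All 40 genes were detected, which means that their TPM reached 1 or more in each library, against 35.1% of all genes with a protein-coding transcript. Their median level was 48.6 TPM in replicate 1 and 42.7 TPM in replicate 2, a mean of 45.6 ± 4.16 (SD, n = 2). The median of all 7678 detected genes with a protein-coding transcript was 4.43 and 4.16 TPM. On the log2(TPM + 1) scale the 40 genes had a median level of 5.54 ± 0.13 and the detected genes one of 2.40 ± 0.05, so the listed genes lay far above the middle of the transcriptome in both libraries. Nuclear genes with a protein-coding transcript held only a part of all TPM. With TPM rescaled to them, the median of the 40 was 9.05 ± 0.08. A cutoff of 1 TPM is therefore stricter here than on that scale. Together the 40 genes held 3.58% and 3.62% of the expected counts of nuclear genes with a protein-coding transcript, and 3.76% and 3.71% of the TPM of those genes. Of the 100 highest genes with a protein-coding transcript by mean TPM, 9 were among them, and 31 of the 40 were among the highest 1000. The lowest, vinculin (Vcl), ranked 5071.

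The 40 genes covered a wide range, and a pair of them took a large share. Actb, which encodes beta-actin, was the highest at 762 and 611 TPM in replicates 1 and 2. Tmsb4x, which encodes the monomer-binding peptide thymosin beta-4, followed at 514 and 485 TPM. These genes alone held 38.4% and 35.3% of the summed TPM of all 40. Next came the leukocyte-specific actin binder Lsp1 at 154 and 143 TPM and the filament bundler Lcp1 (L-plastin) at 134 and 116 TPM. At the low end stood Wasf2 at 9.01 and 7.26 TPM, Arpc1a at 6.85 and 5.8 TPM and Vcl at 3.38 and 2.44 TPM.

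**Figure D1:**
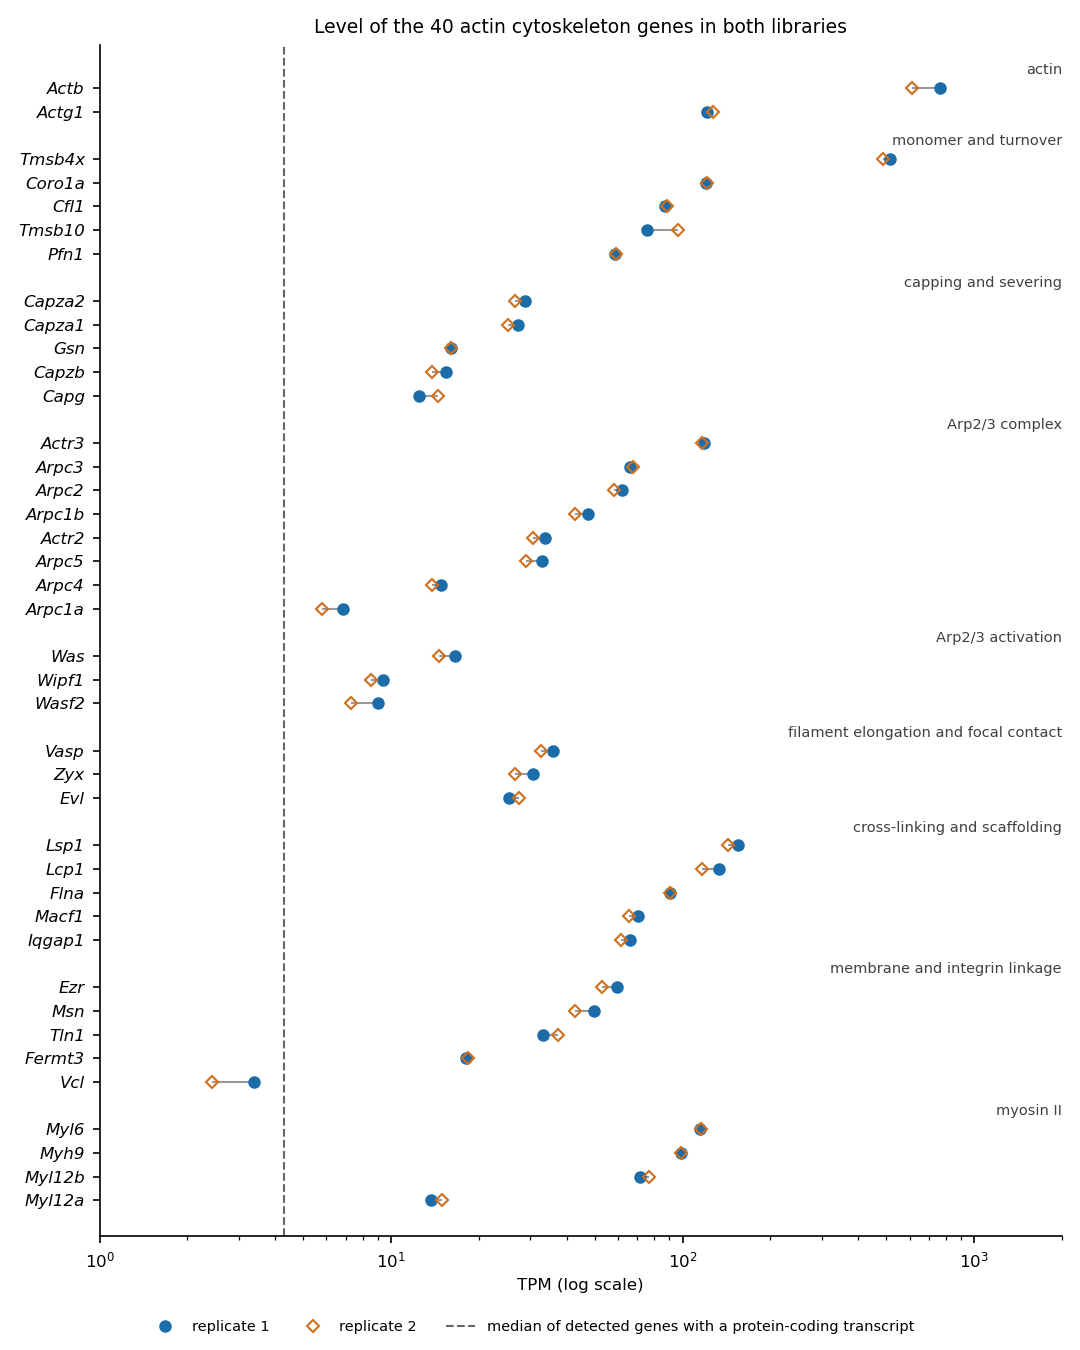
Level of each of the 40 genes in TPM on a log axis, grouped by role, with 1 mark per library and a dashed line at the median of detected genes with a protein-coding transcript. Vcl is the only gene left of the dashed line, Actb (762 and 611 TPM) and Tmsb4x (514 and 485 TPM) lie farthest right, and both marks of a gene lie close together in most rows.

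The role groups differed in level, and their order from top to bottom was close to the same in both libraries. The median level of the 2 actin genes lay 2.65 ± 0.04 log2 units above that of all 40 on the log2(TPM + 1) scale. The groups of monomer binding and turnover (0.99 ± 0.23), cross-linking (0.98 ± 0.13) and myosin II (0.89 ± 0.16) lay above it by similar amounts, and the first of them stood below the second in replicate 1 and above it in replicate 2. Subunits of the Arp2/3 complex lay near the median of all 40 at -0.25 ± 0.03, as did the genes of membrane and integrin linkage at -0.36 ± 0.25. These groups also changed places. The linkage group stood below the Arp2/3 subunits in replicate 1 (-0.54 against -0.27) and above them in replicate 2 (-0.19 against -0.23). Filament elongation (-0.63 ± 0.02), capping and severing (-1.45 ± 0.13) and the switches of the Arp2/3 complex (-2.23 ± 0.04) lay below. With the older gene models the elongation group lay at -1.12 ± 0.09 and with the alignment-free table the cross-linking group lay at 0.55 ± 0.13, but every group kept its sign in both.

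Beta-actin transcripts outnumbered those of gamma-actin, the other actin of non-muscle cells. Actg1, the gamma-actin gene, stood at 121 and 127 TPM, so that Actb held 86.3% and 82.8% of the TPM of both genes. The log2 ratio of Actb to Actg1 was 2.46 ± 0.27, a ratio of 6.28 in replicate 1 and 4.82 in replicate 2. Actb (ENSMUSG00000029580.14) lies on chromosome 5 at 142903115 to 142906754 and Actg1 (ENSMUSG00000062825.15) on chromosome 11 at 120345690 to 120348542, on GRCm38. The proteins are nearly the same, but the genes can be told apart because their coding sequences differ at many silent positions. Over 1125 coding bases without the stop codon they are 88.6% identical with 128 substitutions, and the longest identical run is 62 bases. The first 150 coding bases are shown as an example, with the positions that differ in capitals, from GENCODE M21 on GRCm38. The ratio itself rests on reads of the whole genes.
Actb: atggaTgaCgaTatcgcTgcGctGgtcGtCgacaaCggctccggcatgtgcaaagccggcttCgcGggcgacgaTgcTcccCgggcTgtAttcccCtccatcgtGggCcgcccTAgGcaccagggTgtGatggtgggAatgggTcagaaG
Actg1: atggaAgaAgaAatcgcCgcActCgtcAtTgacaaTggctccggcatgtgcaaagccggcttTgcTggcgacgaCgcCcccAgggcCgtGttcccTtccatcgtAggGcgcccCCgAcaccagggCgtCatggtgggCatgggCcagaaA
Most capitals are single bases spaced a few positions apart along this stretch. For Actg1, 5 pseudogene copies with at least 95% identity over at least 100 coding bases held 265 and 360 counts, 1.47% and 2.01% of its own, and Actb had no such copy. The muscle actin genes Acta1, Actc1 and Actg2 were at 0 TPM in both libraries, and Acta2, of smooth muscle, was at 1.52 and 1.5 TPM.

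Among genes of monomer binding and turnover, thymosin beta-4 led by a wide margin. Its close relative Tmsb10, thymosin beta-10, stood at 75.5 and 96.2 TPM, and the log2 ratio of Tmsb4x to Tmsb10 was 2.55 ± 0.30, with 6.80 in replicate 1 and 5.04 in replicate 2. Both peptides hold actin monomers back from filaments. Their whole coding sequences, of 132 bases each without the stop codon, are shown with the 40 differing positions in capitals, since these genes are very short and closely related.
Tmsb4x: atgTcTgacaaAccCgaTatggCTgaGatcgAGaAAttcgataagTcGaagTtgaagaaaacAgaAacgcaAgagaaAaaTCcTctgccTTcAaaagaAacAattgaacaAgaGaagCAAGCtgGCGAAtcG
Tmsb10: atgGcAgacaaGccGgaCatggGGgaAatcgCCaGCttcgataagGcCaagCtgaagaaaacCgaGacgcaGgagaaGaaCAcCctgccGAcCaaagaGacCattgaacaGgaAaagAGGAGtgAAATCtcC
The sequences are 69.7% identical and their longest identical run is 10 bases. A second coding sequence of 150 bases held 21.2% and 15.7% of the TPM of Tmsb4x, and one of 201 bases held 22.9% and 27.4% of that of Tmsb10. Coro1a, whose product coronin-1A binds filaments and the Arp2/3 complex in blood cells, stood at 121 and 121 TPM. Cfl1, which encodes the severing protein cofilin-1, reached 86.7 and 88.3 TPM, and profilin-1 (Pfn1), which hands monomers to growing ends, was lowest of the group at 58.7 and 59.3 TPM.

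Capping and severing genes formed a low and narrow group. Capping protein is a dimer of an alpha and a beta chain that closes the growing end of a filament. Its alpha chains Capza1 and Capza2 stood at 27.2 and 25.2 TPM and at 28.8 and 26.6 TPM, and the beta chain Capzb at 15.4 and 13.8 TPM. The log2 ratio of Capza1 to Capza2 was -0.08 ± 0.01 and passed the rule for a difference (beyond 2 SD and of 1 sign in both libraries), but it turned to 0.16 ± 0.07 with the alignment-free table and 0.19 ± 0.01 with protein-coding transcripts alone in the M21 table. Gelsolin (Gsn), which severs and caps filaments, stood at 16.0 and 16.1 TPM, and its shorter relative Capg, which caps but does not sever, at 12.5 and 14.5 TPM. The ratio of Gsn to Capg, at 0.26 ± 0.15 on the log2 scale, did not exceed 2 SD, but at 0.53 ± 0.20 with protein-coding transcripts alone it did.

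Gelsolin exists as a cytoplasmic form and as a longer form that is secreted into plasma, made from different first exons. Transcript Gsn-205, with the shorter coding sequence of 2193 bases, held 97.3% and 99.1% of the gene's TPM, and Gsn-201, with the longer one of 2340 bases, held 0 in both libraries (2.40% and 0.550% with the alignment-free table). For Capzb the transcript Capzb-204, with 816 coding bases, led at 63.0% and 56.6%. Capzb-202, with 780 coding bases, held 16.8% and 21.1% in the main table against 5.56% and 5.37% in the alignment-free one. Capzb-201, with 903 coding bases, held 4.31% and 6.31% in the main table against 28.7% and 26.4% in the other one. The split between these beta chains is therefore uncertain.

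The subunits of the Arp2/3 complex, which the cell assembles in fixed proportion, did not stand at equal RNA levels. Actr3, the gene of the actin-related subunit Arp3, was highest at 118 and 117 TPM, and its partner Actr2 (Arp2) stood at 33.7 and 30.6 TPM. Of the core subunits, Arpc3 reached 65.8 and 67.8 TPM and Arpc2 61.7 and 58.0 TPM. Below them lay Arpc1b at 47.5 and 42.7 TPM, Arpc5 at 32.8 and 29.0 TPM and Arpc4 at 14.8 and 13.8 TPM. From Actr3 to Arpc1a the levels covered a ratio of 17.2 in replicate 1 and 20.1 in replicate 2. Of the TPM of Actr3, 50.1% and 51.3% fell on retained-intron transcripts. With protein-coding transcripts alone it moved from rank 7 to rank 14 of the 40.

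A cell can build the complex with ARPC1A or ARPC1B, and here the ARPC1B gene dominated. The log2 ratio of Arpc1b to Arpc1a was 2.84 ± 0.06, or 6.93 in replicate 1 and 7.36 in replicate 2, beyond the spread between the libraries. It was 2.61 ± 0.05 with the M4 table, 2.70 ± 0.06 with the alignment-free table and 2.32 ± 0.54 with protein-coding transcripts alone. Both genes lie next to each other on the plus strand of chromosome 5 on GRCm38, Arpc1a (ENSMUSG00000029621.14) at 145083830 to 145108761 and Arpc1b (ENSMUSG00000029622.16) at 145114215 to 145130705, with 5453 bp between them. Their coding sequences are 72.0% identical. For the ARPC5 subunit the relative Arpc5l was at 10.8 and 10.3 TPM, and Arpc5 held 75.3% and 73.7% of the TPM of both. The Arp3 relative Actr3b was at 0.21 and 0.14 TPM.

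The switches of the complex were the lowest group. Was, the gene of the blood-cell protein WASP, stood at 16.6 and 14.6 TPM, and Wipf1, whose product WIP binds and stabilises WASP, at 9.36 and 8.51 TPM. Wasf2 encodes WAVE2, the subunit of the WAVE complex that activates Arp2/3 downstream of Rac. Was exceeded Wasf2 by 0.95 ± 0.09 log2 units in the main table, a ratio of 1.84 and 2.01, but by 0.02 ± 0.03 with the alignment-free table, in which Wasf2 was 1.75 times as high relative to the other genes as in the main one. In the alignment-free table, 51.0% and 50.9% of Wasf2 fell outside protein-coding transcripts, against 28.3% and 20.9% in the main one.

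Filament elongation was represented by a pair of near-equal genes. Vasp, which encodes a protein that speeds growth at filament tips, stood at 36.0 and 32.6 TPM, and its relative Evl at 25.3 and 27.5 TPM. Their log2 ratio of 0.38 ± 0.19 did not exceed 2 SD, but it did at 1.17 ± 0.15 with the M4 gene models, in which Evl was lower, at 0.63 ± 0.06 with the alignment-free table and at 0.43 ± 0.13 with protein-coding transcripts alone. Zyxin (Zyx), which recruits both proteins to focal contacts, stood at 30.6 and 26.6 TPM. It was the one gene of the 40 that passed 1.5 times in both other tables, at 1.63 times the main value with the alignment-free table after its overall shift and at a log2 difference of -0.66 with the M4 table.

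Cross-linking and scaffolding genes were high throughout. After Lsp1 and Lcp1 came filamin A (Flna), which joins filaments at wide angles, at 90.7 and 90.8 TPM. Macf1, a giant protein that links actin to microtubules, stood at 70.5 and 65.4 TPM, and the scaffold Iqgap1 was lowest at 66.0 and 61.6 TPM. By reads rather than TPM, which divides by length, the order was another one. Macf1 held 78059 and 70518 expected counts, which ranked 5 among all genes with a protein-coding transcript and next to Actb (102328 and 97344) within the list. For Lcp1 the transcripts with the single complete coding sequence of 1881 bases held 97.0% and 96.1% of the TPM. For Macf1, transcripts with an incomplete annotated coding sequence held 64.8% and 66.5%, and the leading complete one, Macf1-204 with 17685 coding bases, held 25.4% and 23.6%.

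In the group of membrane and integrin linkage, the ERM genes were the highest and vinculin the lowest. Ezrin (Ezr) and moesin (Msn) tie filaments to membrane proteins. Ezr stood at 59.5 and 53.1 TPM and Msn at 49.7 and 42.7 TPM, and the log2 ratio of Msn to Ezr was -0.29 ± 0.04. This order reversed to 0.33 ± 0.10 when only protein-coding transcripts were counted, and 44.7% and 40.9% of the TPM of Ezr fell on the 643-base processed transcript Ezr-202. Talin-1 (Tln1), which opens integrins for binding, stood at 33.1 and 37.3 TPM, and its helper kindlin-3 (Fermt3), the kindlin of blood cells, at 18.1 and 18.3 TPM. Vinculin, which reinforces talin's grip on actin, was below the median of all detected genes at 3.38 and 2.44 TPM. The level of Vcl rests on 1344 and 1203 counts, and a gene on the opposite strand, Ap3m1, shares 2235 bases with it and held 2222 and 2025 counts.

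Myosin II, the motor that contracts actin, is built from heavy chains and from essential and regulatory light chains. The heavy chain gene Myh9 stood at 99.0 and 98.9 TPM and the essential light chain gene Myl6 at 115 and 116 TPM. The regulatory light chain genes Myl12b and Myl12a stood at 71.2 and 76.6 TPM and at 13.7 and 14.9 TPM. Their log2 ratio, Myl12a over Myl12b, was -2.37 ± 0.02, and it stayed below 0 in every alternative, from -1.50 ± 0.02 with the M4 table to -2.56 ± 0.04 with the alignment-free one. The size of this ratio is uncertain, since the coding sequences are 96.5% identical over 516 bases with 18 substitutions and an identical run of 102 bases. Both lie on the minus strand of chromosome 17, 2765 bp apart, Myl12b (ENSMUSG00000034868.9) at 70973133 to 70990890 and Myl12a (ENSMUSG00000024048.15) at 70993656 to 71002878. The M21 models list a second entry under the symbol Myl12b (ENSMUSG00000117098.1, 70974119 to 71002208) that spans both, with 10.8 and 12.7 TPM. This entry matches the 516 coding bases of Myl12a at 99.8% identity and those of Myl12b at 100%, and it held 498 and 598 counts. It is not in the M4 table and was left out of the 40.

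Myl6 was read as a mixture of 2 ends of its coding sequence. Myl6-203 held 44.9% and 56.8% of the gene's TPM and Myl6-201 held 42.5% and 35.0% (41.2% and 49.5% against 53.8% and 46.0% with the alignment-free table), so neither led in every reading. Myl6-203 holds an exon of 62 bases that Myl6-201 skips, at chr10:128491286-128491347 on the minus strand of GRCm38, of which 47 bases code before the stop codon. It ends the protein with other residues, and the coding sequence is 474 bases with the exon and 453 without. The junction is shown with the exon in capitals and 12 bases on either side.
Myl6-203: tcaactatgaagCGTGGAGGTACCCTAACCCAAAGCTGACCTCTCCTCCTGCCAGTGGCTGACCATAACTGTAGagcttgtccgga
Myl6-201: tcaactatgaagagcttgtccgga
The skipped form runs straight from the upstream to the downstream bases. One pseudogene copy of Myl6, Gm5526, held 300 and 369 counts beside the 5628 and 5541 of Myl6 itself, and Gm5526 is 99.2% identical over 381 bases.

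**Figure D2:**
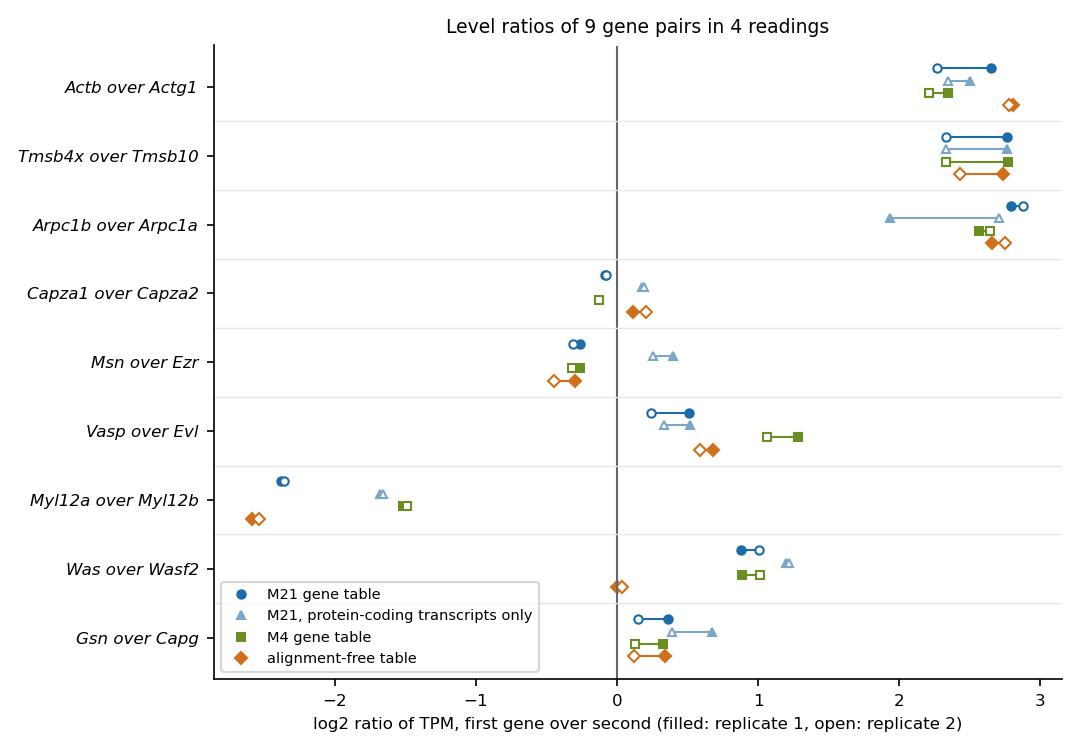
Log2 ratio of TPM of the first over the second gene of 9 pairs, for the main table, its protein-coding transcripts alone, the M4 table and the alignment-free table, with a filled mark for replicate 1 and an open mark for replicate 2. The upper 3 pairs and Myl12a over Myl12b keep their side of 0 in all readings, while Capza1 over Capza2 (means from -0.13 to 0.19) and Msn over Ezr (means from -0.37 to 0.33) cross it.

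Within the protein families read here the listed genes mostly had no strong rival. For this view 18 families were drawn up after the values were known, by adding relatives from a companion list of actin genes. In 10 families 1 gene held at least 90% of the family's TPM in both libraries. Lcp1 held 99.8% and 99.8% of the plastins, Flna 99.1% and 99.2% of the filamins, and Iqgap1 95.8% and 95.5% of the IQGAPs. Tln1 held 100.0% and 99.9% of the talins and Fermt3 100% and 99.9% of the kindlins, as Tln2, Fermt1 and Fermt2 were at or below 0.02 TPM. Of the 3 myosin II heavy chain genes read, only Myh9 had a TPM above 0 in the main table, as Myh10 and Myh14 were at 0. With the alignment-free table Myh9 held 99.1% and 99.8% of them. Cfl1 held 89.9% and 91.1% of the cofilin family, beside destrin (Dstn, 6.92 and 6.51 TPM) and Cfl2 (2.87 and 2.09 TPM), and Coro1a 83.6% and 83.7% of the coronins. Among these 18 families, shared ones were the exception. Capza1 with Capza2 and Gsn with Capg, which stood at similar levels, were not among the families. Nor were Tmsb4x with Tmsb10 and Arpc1b with Arpc1a, in which 1 gene led. Ezr held 51.0% and 51.8% of the ERM genes, with radixin (Rdx) at 7.35 and 6.74 TPM, and Vasp 58.7% and 54.0% of the Ena/VASP genes.

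**Figure D3:**
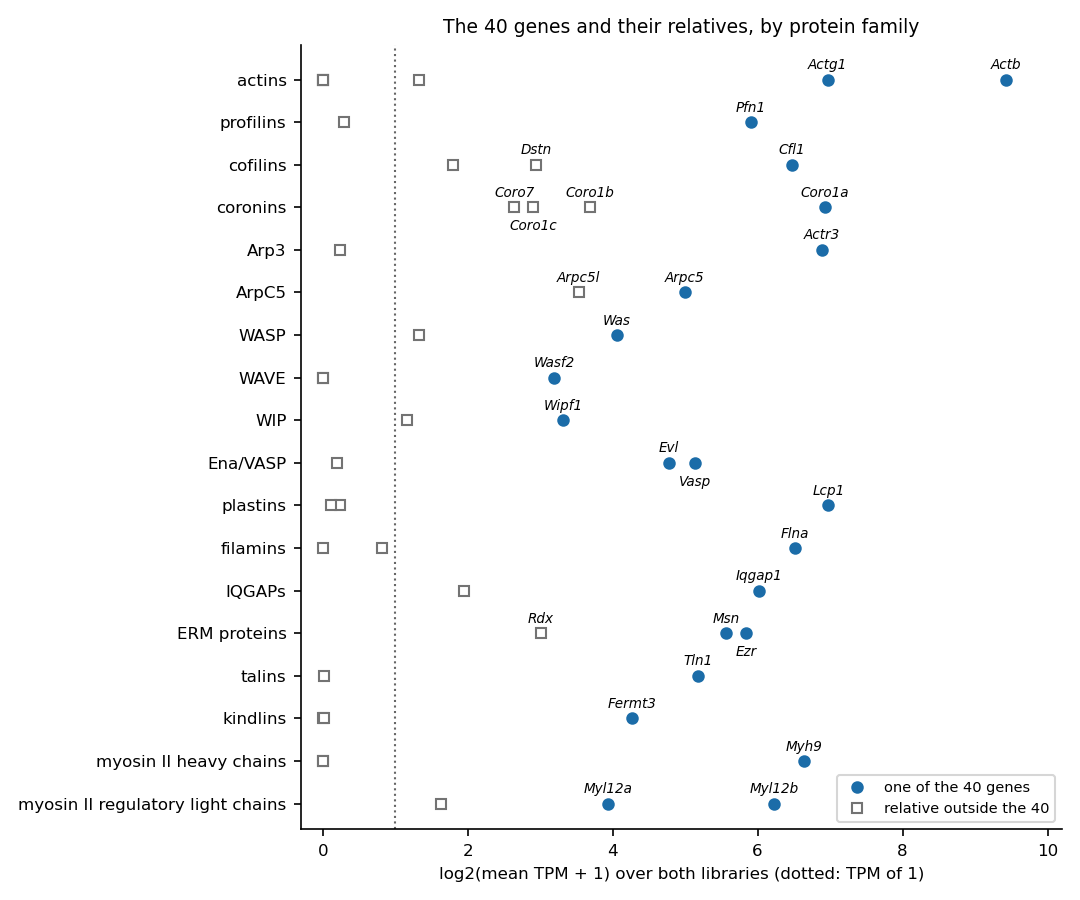
Level of the listed genes (filled circles) and of relatives outside the list (open squares) in 18 protein families, as log2 of the mean TPM of both libraries plus 1. In most families a filled circle stands alone on the right with the relatives near or left of the dotted line at a TPM of 1, while Ezr with Msn and Vasp with Evl stand side by side.

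Beyond the 40, a companion list of 85 actin-related genes was read, of which 82 matched a gene entry. Of these, 55 were detected, 27 were below a TPM of 1 in both libraries, and their median was 4.87 and 4.33 TPM. Of 13 genes in the group of small GTPases and regulators, 12 were detected. This group also holds the transcription regulators Srf, Mrtfa and Mrtfb, and the gene not detected was Mrtfb at 0.75 and 0.54 TPM. Arhgdib was highest of the group at 96.0 and 88.4 TPM. Cdc42, the GTPase that switches on WASP, stood at 62.6 and 59.8 TPM. Tropomyosins coat filaments, and Tpm3 was high at 90.4 and 77.4 TPM, with Tpm4 at 51.8 and 48.9 TPM. For turnover the monomer recycler Cap1 stood at 60.8 and 60.0 TPM and the cofilin phosphatase Ssh2 at 39.8 and 33.3 TPM.

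Of 13 further genes of Arp2/3 activation, 9 were detected. Hcls1, the cortactin relative of blood cells, was at 46.2 and 44.9 TPM while cortactin itself (Cttn) was at 0.18 and 0.12 TPM. Nckap1l, the WAVE complex subunit of blood cells, stood at 33.0 and 29.3 TPM against 0.41 and 0.65 TPM for Nckap1. Of 7 formins, which build unbranched filaments, 4 were detected, led by Fmnl1 at 32.9 and 32.6 TPM and Diaph1 at 12.4 and 11.8 TPM. Of 7 further cross-linkers 3 were detected, with Actn1 highest at 10.8 and 9.49 TPM and Actn4 at 3.13 and 2.42 TPM. In membrane linkage 6 of 12 passed, led by paxillin (Pxn) at 24.7 and 19.7 TPM and Marcks at 23.3 and 19.6 TPM. Cttn and Nckap1 were named after their values were seen.

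A share of each gene's TPM fell on transcripts that are not annotated as protein-coding, such as retained-intron forms, which keep intron sequence, and other short processed forms. The median share was 13% and 12.6% over the 40 genes and 25.3% and 24.9% over detected genes with a protein-coding transcript. At least 25% in both libraries was reached by 11 of the 40, against 44.8% of detected genes. For retained introns alone the medians were closer, 9.89% and 7.5% against 11.6% and 11.8%, and 7 of the 40 reached 25%, against 28.5% of detected genes. The alignment-free table gave higher medians of 17.7% and 15.5% for the 40 and 33.6% and 33.2% for detected genes. Total RNA libraries keep unspliced RNA, and whether such RNA took part in these shares was not tested.

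The genes with the largest shares came from several roles. Flna led with 66.8% and 59.6% outside protein-coding transcripts, and its full-length transcript Flna-202 held 25.7% and 24.7%. After Actr3, given above, Arpc1b had 50.5% and 46.6%, Zyx 41.9% and 44.8%, Ezr 44.7% and 40.9%, and Myl12b 42.2% and 40.9%, of which the 369-base retained-intron transcript Myl12b-202 took 38.4% and 37.9%. Iqgap1 (35.0% and 35.2%), Myh9 (34.6% and 37.7%), Fermt3 (29.9% and 31.0%) and Lsp1 (28.1% and 27.7%) followed. These shares are of TPM, which weights short transcripts more than reads do. By expected counts Flna had 26.8% and 21.4% outside protein-coding transcripts, and Tln1 2.91% and 2.64% against 32.9% and 48.3% by TPM. At the other end Tmsb4x, Tmsb10, Arpc2, Arpc4 and Wipf1 had 0% in both libraries. Of these only Wipf1 has annotated transcripts outside the protein-coding class. For the others the share could only be 0%, whatever the reads.

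**Figure D4:**
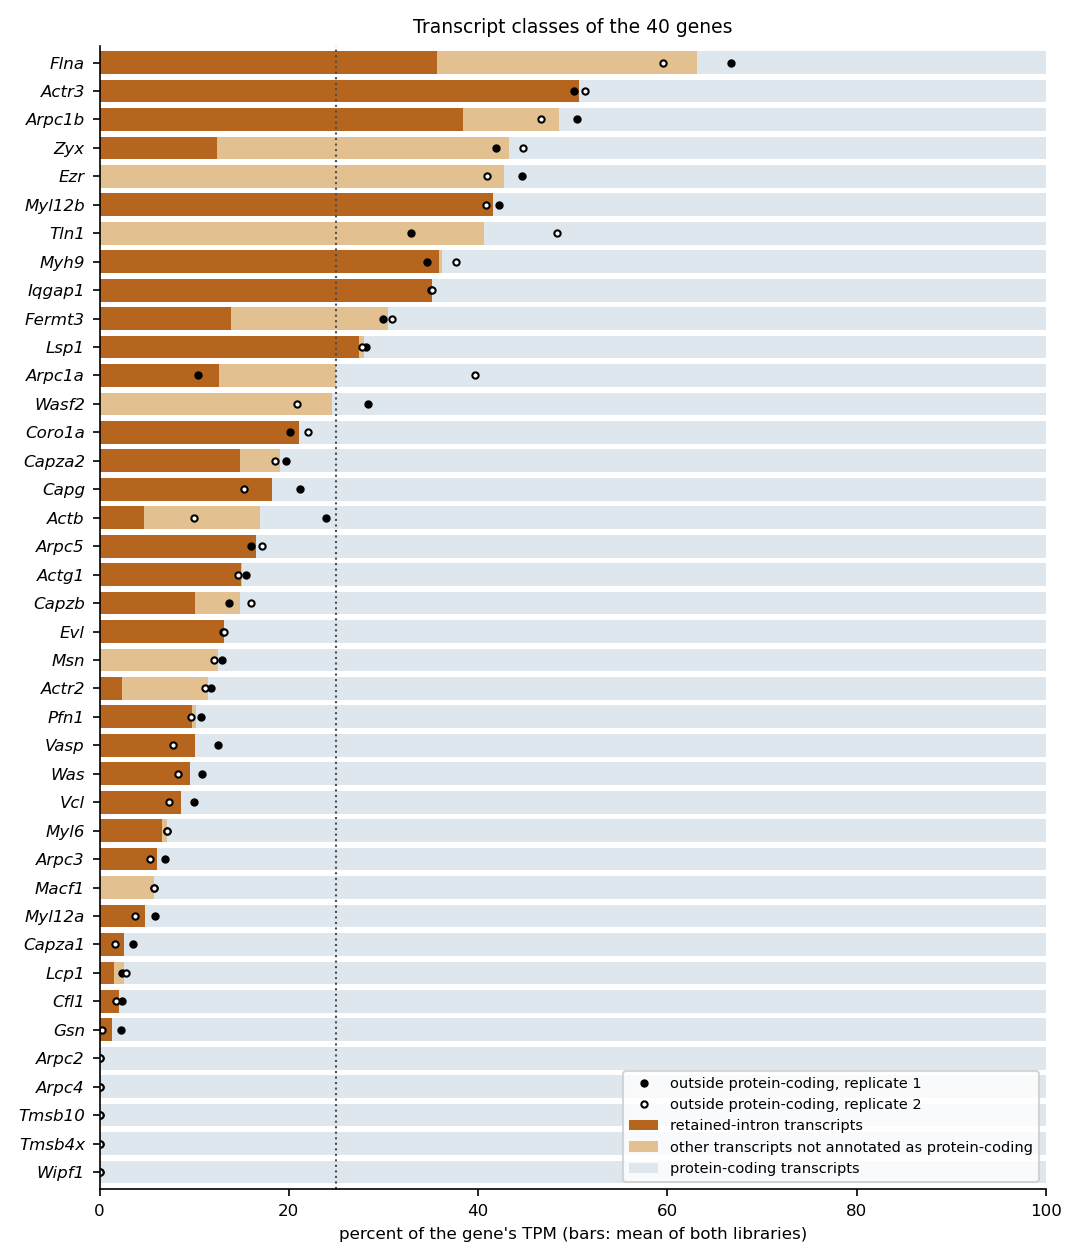
Percent of each gene's TPM in retained-intron transcripts, in other transcripts not annotated as protein-coding and in protein-coding transcripts, as the mean of both libraries, with circles for the share outside protein-coding transcripts in each library and a dotted line at 25%. Flna, Actr3 and Arpc1b have the longest coloured bars, and the circles of Arpc1a (10.4% and 39.7%), Tln1 and Actb (23.9% and 9.94%) lie farthest apart.

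The leading transcript was annotated as protein-coding in both libraries for 39 of the 40 genes. Zyx was the exception, with the coding Zyx-207 ahead in replicate 1 (32.7%) and the 344-base Zyx-210 ahead in replicate 2 (29.6%). In 37 genes the same transcript led in both libraries, and in 30 it also led in both libraries of the alignment-free table. In several of the others the rival transcripts carry the same coding sequence, so the protein is the same. In Actg1 a shared one held 82.6% and 77.2%, and Arpc2-203 and Arpc2-201 share one that held 99.2% and 100% of Arpc2. Arpc4 was less settled, as the 504-base coding sequence of Arpc4-201 held 34.7% and 43.4%, and a 234-base one held 65.3% and 38.7%. In 12 genes a single transcript held at least 75% in both libraries. How often a transcript led in these ways was not counted over all detected genes.

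None of the 40 genes differed between the libraries by the rule used, a fold of TPM + 1 of at least 1.5 with at least 50 counts in the higher library and a TPM of at least 1 in either. Of the 8153 genes tested, 130 did, or 1.59% (0.454% higher and 1.14% lower in replicate 2). Among the 40 the TPM of replicate 2 over replicate 1 ran from 0.722 to 1.27, with a median of 0.931 against 0.932 over detected genes. In counts scaled to the library total (CPM) the ratios ran from 0.885 to 1.35, with a median of 1.00. The exact 95% interval of the count ratio, which covers counting error only, lay above 1 for 15 of the 40 (17.4% of detected genes) and below 1 for 9 (24.2%).

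Counts and TPM are set side by side here for 5 genes, chosen after their values were seen. Tmsb10 was higher in replicate 2 by both, with 2800 and 3591 counts, a CPM ratio of 1.35 (95% interval 1.29 to 1.42) and a TPM fold of 1.27. Capg was also higher by both, with a CPM ratio of 1.30 and a TPM fold of 1.16. Actb had equal CPM in both libraries, with a ratio of 1.00 (0.995 to 1.01), but a TPM fold of 0.802. Its effective length was 1374 bases in replicate 1 and 1620 in replicate 2, and the 241-base transcript Actb-209 held 19.9% and 4.57% of its TPM on 1220 and 241 counts. With the M4 gene models, which lack that transcript, Actb stood at 624 and 591 TPM.

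In vinculin and talin, as in Actb, the TPM fold and the CPM ratio lay apart. The TPM fold of Vcl was 0.722, its CPM ratio 0.944 (0.873 to 1.02), and the 446-base transcript Vcl-202 held 18.8% of its TPM in replicate 1 and 0% in replicate 2. Tln1 had a TPM fold of 1.13 and a CPM ratio of 0.926 (0.907 to 0.946), while its 283-base transcript Tln1-204 held 17.7% and 41.1%. The share of short transcripts moved with the TPM in all 3 genes, and its part in the TPM difference between the libraries was not tested.

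**Figure D5:**
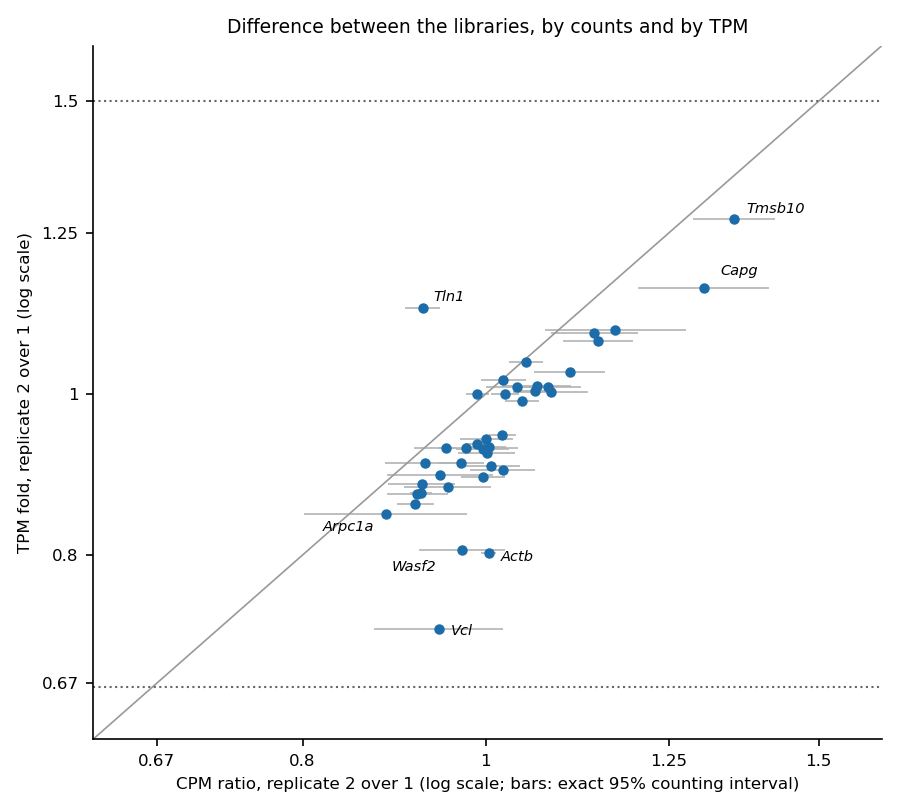
Ratio of replicate 2 to replicate 1 for each of the 40 genes, by CPM on the horizontal axis with its exact 95% counting interval and by TPM on the vertical axis, both on log scales, with dotted lines at the 1.5-fold threshold. All genes lie between the dotted lines, Tmsb10 and Capg lie highest among the CPM ratios, and Vcl, Actb and Tln1 lie off the diagonal.

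The level of a gene also depended on the table read. In the alignment-free table all detected genes were higher by 0.89 and 0.83 log2 units in the median, and relative to this shift 2 of the 40 differed by 1.5 times or more from the main table, Wasf2 and Zyx, against 7.36% of detected genes. With the M4 models 3 of the 40 differed by that much, against 12% of detected genes, and all 3 were lower, with log2 differences of -0.79 for Evl, -0.74 for Myl12b and -0.66 for Zyx. In these genes the transcripts that M4 does not list held 78.8%, 56.2% and 74.9% of the TPM in replicate 1, in that order.

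The 40 genes lie on 15 chromosomes, 4 of them on the X chromosome (Tmsb4x, Was, Flna and Msn). Other gene entries overlap 27 of them, on the same strand for 10 and on the opposite strand for 22. Overlaps and the copies below were looked up for the 40 genes only, so no share over all genes stands beside them. Since the strand setting of the counting is not given in the sources used here, reads of such neighbours cannot be told apart. Most overlapping entries held few counts, and those with the most were Ap3m1 at Vcl, St7l at Capza1 (1252 and 1055 counts), Pdap1 at Arpc1b (759 and 726) and Creb3 at Tln1 (584 and 650). Copies at 95% identity or more existed for 11 of the 40. They held at least 5% of the gene's own counts in either library only for Myl6, Myl12a and Myl12b. Myl12a and Myl12b are copies of each other, and the second Myl12b entry is a copy of both.

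The promoters of the 40 genes were read for short motifs, because serum response factor, a regulator of many actin genes with its coactivator MRTF-A, binds an A and T rich sequence called the CArG box. Both were detected, Srf at 2.62 and 3.06 TPM and Mrtfa at 5.15 and 5.61 TPM. RefSeq promoter windows on GRCm38, from 250 bases before to 50 after the start, were found for 38 of the 40 genes and not used for Actb and Lsp1. Some genes have several windows, 32851 for 27025 genes in all, and a gene counts here if any of its windows holds the motif. A CArG box on either strand was present in 4 of the 38 genes (10.5%), in 1.81% of all 27025 genes with a window and in 1.53% of the detected ones. For each of these 4 genes 1 window is shown in the direction of transcription with the box in capitals, cut to at most 50 bases.
Actg1, chr11:120348556-120348605, minus strand: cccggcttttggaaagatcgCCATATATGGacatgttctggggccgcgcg
Vcl, chr14:20929151-20929200, plus strand: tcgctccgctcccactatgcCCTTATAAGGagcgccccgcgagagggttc
Myl6, chr10:128493030-128493079, minus strand: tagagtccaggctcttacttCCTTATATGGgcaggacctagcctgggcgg
Arpc4, chr6:113377863-113377892, plus strand: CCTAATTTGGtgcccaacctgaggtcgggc
These genes had unlike levels, from 121 and 127 TPM for Actg1 to 3.38 and 2.44 TPM for Vcl, so the box did not go with a common height. The GC box GGGCGG was present in 30 genes (78.9%, against 38.2% of all and 69.9% of detected genes), the ETS site CCGGAAG in 11 (28.9%, against 9.93% and 24.0%) and CCAAT in 11 (28.9%, against 41.1% and 42.4%). The TATA box TATAAA was present in 1 gene, Myh9 (2.63%, against 15.7% and 8.69%). All were searched on both strands, and a CArG box can hold the letters of the TATA box. A match describes the letters in these windows and says nothing about binding.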

How the data were processed

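Gene levels were read from tables the authors deposited for each of 2 libraries. Per the file headers, the gene tables on GENCODE M21 (main) and the older M4 give an expected count and a TPM per gene, and the transcript table on M21 gives each transcript's percent of its gene's TPM. A further deposited transcript table, whose listed parents hold no alignment, gives estimated counts and TPM and is called alignment-free here. Reads were placed on mm10 transcripts, per the file lists deposited with the libraries. For all tables, program, version and strand setting: not given in the sources used here.

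Depth was 22647028 and 21471719 expected counts. Entries of no gene held 1.63e-04% and 2.16e-04% of them and were left out. A pair of genes differed beyond the spread when the mean log2 TPM ratio, with no pseudocount, exceeded 2 SD with 1 sign in both libraries. Counting intervals are exact conditional binomial intervals on rounded counts. They cover counting error only, since amplified reads are not independent molecules. Coding sequences came from GENCODE M21 and copies from BLAST+ 2.17.0. TMM factors (edgeR 4.0.16) and size factors (DESeq2 1.42.0) in R 4.3.3 served as alternatives, and the rest was run in Python 3.11.15 with pandas 2.3.3 and scipy 1.17.1. The rule for differing genes and the interval were tested on simulated data. Values were printed for the extremes of each role, both genes of each pair, and genes that differed between tables or had at least 25% outside protein-coding transcripts. Other names were added after their values were seen. The 40 genes and all lists were chosen with earlier results of these data known. Protein sequences were not used here. One result is not reported here.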

Additional observations from a re-analysis of the deposited data

How the results depend on the processing

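All 40 genes stayed detected with at least 10 counts and with the M4 and alignment-free tables, and 39 passed a TPM of 5. A TPM of at least 0.1 and each library alone also kept all 40. That was fixed in advance, since all 40 had passed a TPM of 1 in both libraries. No gene differed between the libraries under any of the 7 other settings tried, namely a fold of 2, no filter, TMM, DESeq2 size factors, rescaled TPM and the other tables. The fold of 2 could not have added a gene, since none had passed a fold of 1.5. The median level of 5.54 log2 units was 9.05 with TPM rescaled to nuclear genes with a protein-coding transcript, 5.39 with M4, 6.42 with the alignment-free table and 4.99 with protein-coding transcripts alone, and 5.45 to 5.63 with either library left out. With a pseudocount of 1, the log2 ratio of Arpc1b to Arpc1a was 2.66 and that of Myl12a to Myl12b was -2.29. With M4 the ratios were 2.61 for Arpc1b to Arpc1a, -0.13 for Capza1 to Capza2, 1.17 for Vasp to Evl and -1.50 for Myl12a to Myl12b. With the alignment-free table they were 2.79 for Actb to Actg1, 2.70 for Arpc1b to Arpc1a, 0.16 for Capza1 to Capza2 (reversed), -0.37 for Msn to Ezr, 0.63 for Vasp to Evl, -2.56 for Myl12a to Myl12b and 0.018 for Was to Wasf2. With protein-coding transcripts alone, chosen after seeing the data, they were 2.32 for Arpc1b to Arpc1a, 0.19 for Capza1 to Capza2 and 0.33 for Msn to Ezr (both reversed), -1.67 for Myl12a to Myl12b, 1.21 for Was to Wasf2 and 0.53 for Gsn to Capg. The cause of these moves was not tested. The median share outside protein-coding transcripts of 12.8% was 16.6% with the alignment-free table. The number of genes with at least 25% there, 11, was 14 with that table and 12 in either library alone. For these 2 alternatives it was not counted over all detected genes. No paired analysis was possible because there is 1 group. With 2 libraries an SD is itself imprecise.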
